A study of Mus musculus with 10 samples.

Results

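The levels of 9 noncoding RNAs that act mainly in the nucleus were examined in embryonic mouse cortex with and without the histone methyltransferase DOT1L: the long RNAs Malat1, Neat1, Miat, Sox2ot, Rmst and Snhg11, and the short structured RNAs Rn7sk (7SK), Rmrp and Rpph1. They were chosen by name, and 7 of the 9 had a row among the 43629 gene identifiers of the count tables. Sox2ot and Rmst had no row under their own identifiers. All 7 measured RNAs passed the filter on low counts and stood among the 17039 genes tested.

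The tissue was dorsal telencephalon, from which the cerebral cortex forms, taken from C57BL/6 embryos at E14.5 (embryonic day) for RNA sequencing. The 5 control libraries came from embryos without Cre and with 1 floxed Dot1l allele (Dot1l-cKO f/+). The 5 Dot1l-cKO libraries came from embryos with 1 allele of a Cre driver and with both Dot1l alleles floxed (Dot1l-cKO f/f). The driver acts throughout the telencephalon, and the controls were littermates without it, so loss of Dot1l and presence of the Cre allele cannot be told apart in this comparison. Libraries were made from total RNA with a stranded protocol that removes ribosomal RNA, so RNAs without a poly(A) tail were retained.

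DOT1L methylates histone H3 at lysine 79 along the bodies of transcribed genes, a mark found where RNA polymerase II is active. Malat1 and Neat1 are the RNAs of nuclear speckles and of paraspeckles, Miat (Gomafu) is a neuronal nuclear RNA that binds splicing factors, Sox2ot is transcribed across the Sox2 gene, Rmst is a neural RNA known to bind SOX2, and Snhg11 is the host of small nucleolar RNAs. The 3 short RNAs are transcribed by RNA polymerase III: 7SK holds the elongation kinase P-TEFb in an inactive complex, Rpph1 is the catalytic RNA of RNase P, which trims precursor tRNAs and cuts the end of Malat1, and Rmrp is the RNA of the related RNase MRP, which acts in ribosomal RNA maturation.

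The libraries held between 54202349 and 66556034 counts. Markers of dorsal telencephalon were present in all 10 libraries, with Neurod6 at 431 to 605 CPM (counts scaled to a library of 1e+06), Eomes at 222 to 336 CPM and Emx1 at 62.4 to 109 CPM. Each sample column carried a number in its header, which was the same in both groups (51 in replicate 1, 57 in replicates 2 and 3, 90 in replicate 4 and a further number in replicate 5), and the sources used here do not say what it stands for. The 4 libraries numbered 57 stood apart in mitochondrial ribosomal RNA, which took 0.0471% to 0.492% of their counts against 5.79% to 10.9% in the other 6. Dot1l itself was counted at 31.4, 41.5, 36.6, 40.6 and 36.3 CPM over control replicates 1 to 5 and at 42.3, 20.1, 39.6, 43.4 and 51.7 CPM over replicates 1 to 5 of Dot1l-cKO. The groups overlapped (log2 fold change 0.08 ± 0.20 (SE), adjusted p = 0.864, edgeR), and a count over all exons of Dot1l does not check the removal of the floxed stretch.

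The sequences below show known features of Rn7sk, Malat1 and Miat, and runs of bases shared by Rmrp and Rpph1. They are given on the strand of the RNA and with T for U, from the GENCODE M21 transcripts on build GRCm38. Rn7sk lies on the minus strand of chromosome 9 (chr9:78175303-78175633, a single exon), and its first 120 bases (chr9:78175514-78175633) hold the GATC repeats of the hairpin that HEXIM proteins bind, in capitals.
Rn7sk: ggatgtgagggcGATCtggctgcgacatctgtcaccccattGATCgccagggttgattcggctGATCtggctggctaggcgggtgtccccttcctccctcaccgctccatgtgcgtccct
The stretch held 3 copies of GATC, read on the strand of the RNA. Among 735940 windows of 120 bases laid end to end along the longest transcript of each gene in the tables, 27.5% held GATC at least once and 0.496% held it at least 3 times.

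Rmrp (chr4:43492788-43493058) and Rpph1 (chr14:50807449-50807767), both single exons on the minus strand, are related ribozymes, and the stretches shown hold the longest runs of bases that they share, in capitals (chr4:43492810-43492896 for Rmrp and chr14:50807494-50807767 for Rpph1).
Rmrp: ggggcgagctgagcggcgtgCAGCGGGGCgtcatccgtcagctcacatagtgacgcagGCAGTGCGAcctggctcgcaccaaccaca
Rpph1: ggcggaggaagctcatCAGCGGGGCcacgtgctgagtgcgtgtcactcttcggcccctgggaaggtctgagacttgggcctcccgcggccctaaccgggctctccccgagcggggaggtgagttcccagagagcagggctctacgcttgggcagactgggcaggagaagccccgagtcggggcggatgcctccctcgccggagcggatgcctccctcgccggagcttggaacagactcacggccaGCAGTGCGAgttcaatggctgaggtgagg
The longest shared run was 9 bases and occurred in 2 versions, CAGCGGGGC and GCAGTGCGA, which stand in the same order in both RNAs. In windows of 87 bases along the same transcripts, 0.0377% held the first and 0.012% held the second on the strand of the RNA. In windows of 274 bases the shares were 0.13% and 0.0418%. Both runs were picked because the 2 RNAs share them, so these shares do not test whether the RNAs are related. How often unrelated RNAs of these lengths share a run of 9 bases was not measured.

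Malat1 is a single exon on the minus strand of chromosome 19 (chr19:5795690-5802672). The stretch shown lies near its 3′ end (chr19:5795978-5796077) and holds the U-rich and A-rich tracts that fold into the triple helix protecting the mature RNA, in capitals.
Malat1: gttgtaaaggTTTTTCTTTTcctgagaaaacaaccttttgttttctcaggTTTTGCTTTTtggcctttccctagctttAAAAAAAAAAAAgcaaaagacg
It held 2 matches to TTTTNCTTTT and a run of 12 A. Of 887986 windows of 100 bases, 0.447% held at least 1 such match and 0.0396% at least 2, read on the strand of the RNA. The annotated transcript goes on for 298 bases after the run of A, past the stretch that RNase P releases.

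Miat lies on the minus strand of chromosome 5 (chr5:112213228-112229395, 6 merged exons). The stretch shown (chr5:112217318-112217467, inside an exon) holds part of its ACTAAC repeats, in capitals, which match the branch-point sequence bound by the splicing factor SF1.
Miat: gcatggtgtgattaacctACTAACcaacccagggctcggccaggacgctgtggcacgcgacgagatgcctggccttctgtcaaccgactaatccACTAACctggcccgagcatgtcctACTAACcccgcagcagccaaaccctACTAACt
These 150 bases held 4 of the 11 copies in Miat-201. Of 584072 windows of 150 bases, 1.65% held ACTAAC at least once on the strand of the RNA and 5 windows held it at least 4 times. The same 150 bases were also annotated as a separate small RNA gene, Gm27627, whose row stood at 0 in every library.

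Rn7sk was among the most abundant RNAs in the tissue and was measured with little spread. It ranked 2 of all rows by mean CPM and took 2.07% to 2.63% of all counts. It was counted at 23470, 20657, 20682, 23805 and 21022 CPM over control replicates 1 to 5. Over replicates 1 to 5 of Dot1l-cKO it was counted at 24828, 24742, 20336, 21870 and 22074 CPM. The groups overlapped over most of their range, and the lowest library of all was a Dot1l-cKO library. The control mean of 21927 ± 1573 CPM stood against 22770.0 ± 1958 CPM in the mutants (SD, 5 libraries a group), with a fitted log2 fold change of 0.05 ± 0.08 (SE; edgeR, adjusted p = 0.768). Its 95% interval ran from -0.13 to 0.24, so a ratio of Dot1l-cKO to control below 0.916 or above 1.18 lay outside it. In bulk tissue, fewer cells with an RNA and less of it per cell cannot be told apart, here and for each value that follows.

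Rmrp, the RNA of RNase MRP, ranked 3 of all rows and took 0.764% to 1.19% of counts. Control replicates 1 to 5 held 9994, 8677, 10346, 9597 and 9168 CPM. Dot1l-cKO replicates 1 to 5 held 8087, 10093, 8283, 11977 and 9597 CPM. The Dot1l-cKO libraries lay on both sides of the control range, with the lowest value in replicate 1 and the highest in replicate 4. The means were 9556 ± 659.8 and 9607 ± 1574 CPM, with a log2 fold change of 0.01 (95% interval -0.23 to 0.25, adjusted p = 0.983, edgeR). Which side of 0 this difference fell on depended on the scaling: it was -0.019 with DESeq2 size factors.

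Rpph1, the RNA of RNase P, ranked 7 of all rows. It was counted at 4900, 4776, 5109, 4689 and 4894 CPM in control replicates 1 to 5, the narrowest control range among the 7 RNAs in proportion to its mean. It was counted at 4882, 6519, 4994, 6225 and 4701 CPM in Dot1l-cKO replicates 1 to 5. Replicates 2 and 4 of Dot1l-cKO stood above every control library, and the other 3 lay within the control range. The means were 4874 ± 158 and 5464 ± 842 CPM, a log2 fold change of 0.17 (95% interval -0.05 to 0.38), which did not pass the test (adjusted p = 0.4, edgeR).

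Together the 3 short RNAs took 3.45% to 3.74% of counts in controls and 3.54% to 4.39% in Dot1l-cKO. Their proportions within a library were less even in Dot1l-cKO: the count of Rn7sk over that of Rmrp was 2.00 to 2.48 in controls and 1.83 to 3.07 in Dot1l-cKO, and that of Rmrp over Rpph1 was 1.82 to 2.05 in controls and 1.55 to 2.04 in Dot1l-cKO. No test was made on these ratios. Rn7sk has near-identical copies in the genome. Of the rows in the tables, 11 matched it with at least 90% identity over at least 200 bases, and the closest, Gm24447, was identical over 241 bases and held 2388 to 4086 counts against 1161619 to 1528812 for Rn7sk. All 11 together took 0.239% to 0.388% of the counts of Rn7sk and its copies. Reads that match Rn7sk and a copy equally well may have been left out of every row. These shares therefore do not limit how far the copies affect the count of Rn7sk, and the counts of the copies themselves are uncertain. Rpph1 shares 233 of its 319 exon bases with Ccnb1ip1 on the same strand in this annotation, and Ccnb1ip1 was at most 6 counts. Reads in the shared bases were assigned to neither gene if the counting left out reads that overlap 2 genes. The low count of Ccnb1ip1 therefore does not limit how far the overlap affects the count of Rpph1. No other row matched Rmrp, although 124 of its bases lie antisense to exons of Ccdc107.

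**Figure D1:**
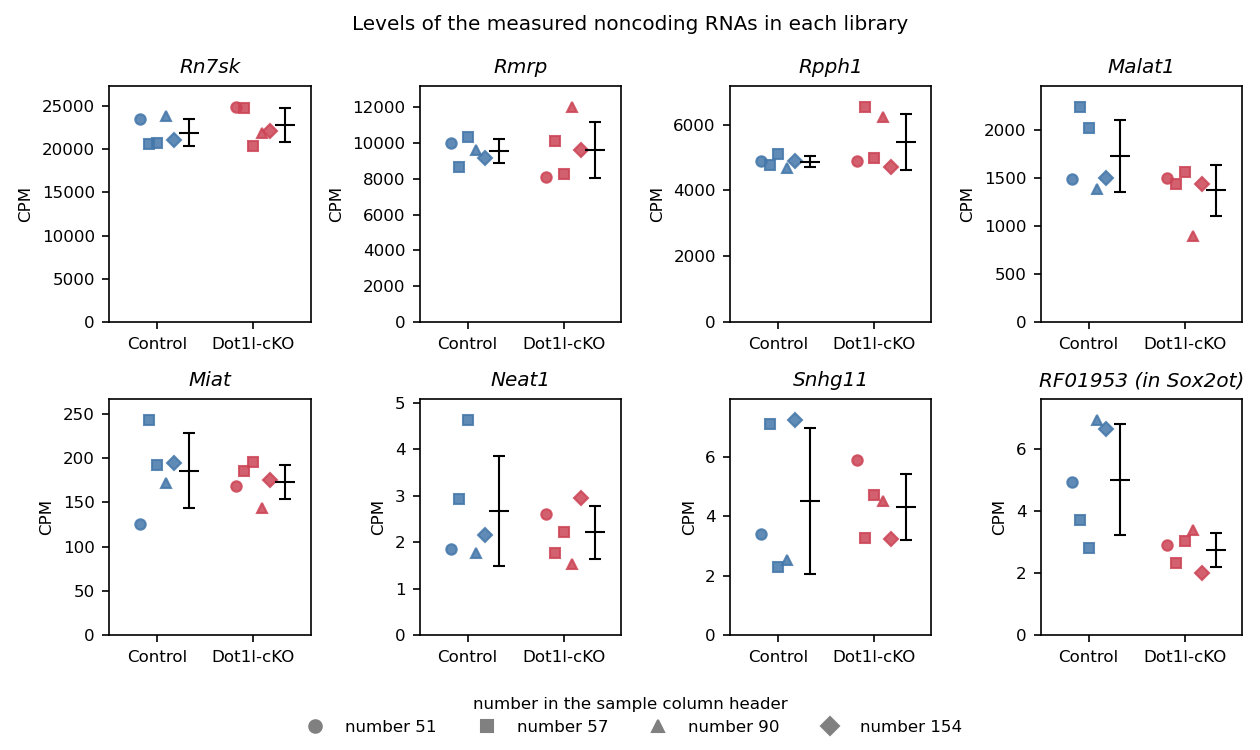
Level of each measured RNA in every library, in CPM on a linear axis from 0, for control (blue) and Dot1l-cKO (red), with marker shapes for the number in the sample column header and black bars for the mean and SD of 5 libraries. The 2 groups overlap in every panel, the lowest Malat1 value (902 CPM) is that of Dot1l-cKO replicate 4, and RF01953, a row inside a Sox2ot exon, spans 2.80 to 6.93 CPM in controls and 2.01 to 3.38 CPM in Dot1l-cKO.

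Malat1 was the most abundant of the long RNAs, at rank 23 of all rows. Control replicates 1 to 5 held 1488, 2239, 2024, 1393 and 1505 CPM. Dot1l-cKO replicates 1 to 5 held 1508, 1446, 1571, 902 and 1440.5 CPM. Control replicates 2 and 3, both numbered 57, were the highest of all, and Dot1l-cKO replicate 4 was the lowest of all, while the other 7 libraries lay between 1393 and 1571 CPM. The means were 1729.6 ± 377 and 1374 ± 269 CPM, and the log2 fold change of -0.33 ± 0.17 (SE, 95% interval -0.71 to 0.05) did not pass the test (adjusted p = 0.315, edgeR). The value was lower in Dot1l-cKO in 4 of 5 pairs with the same replicate number. Without Dot1l-cKO replicate 4 the log2 fold change was -0.21. It was -0.48 among the 4 libraries numbered 57 and -0.19 among the other 6.

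Neat1, the scaffold of paraspeckles, was low although its annotated exon spans 20771 bases (chr19:5824708-5845478, minus strand), with 92 to 309 counts per library. It was at 1.85, 2.93, 4.63, 1.76 and 2.16 CPM over control replicates 1 to 5 and at 2.60, 1.77, 2.21, 1.54 and 2.95 CPM over replicates 1 to 5 of Dot1l-cKO. Control replicate 3 stood above all other libraries, and the other 9 were interleaved. The log2 fold change was -0.27 (95% interval -0.90 to 0.36, adjusted p = 0.652, edgeR), and its direction was not stable: it was 0.023 without control replicate 3, -0.91 among the libraries numbered 57 and 0.29 among the others. The short and the long Neat1 RNA share their 5′ part and were counted as a single gene.

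Miat was counted at 126, 243, 192, 172 and 195 CPM over control replicates 1 to 5. Over replicates 1 to 5 of Dot1l-cKO it was counted at 168, 185, 196, 144 and 175 CPM. Both the lowest and the highest library were controls, and all Dot1l-cKO libraries lay between them. The means were 186 ± 42.2 and 173 ± 19.3 CPM, with a log2 fold change of -0.10 (95% interval -0.43 to 0.23, adjusted p = 0.771, edgeR), which turned to 0.019 without control replicate 2.

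Snhg11 (chr2:158375638-158386145, plus strand, 4 merged exons, and classed as protein coding in this annotation) was low, with 153 to 449 counts per library. It was at 3.40, 7.12, 2.29, 2.52 and 7.25 CPM over control replicates 1 to 5. It was at 5.91, 3.26, 4.73, 4.52 and 3.24 CPM in Dot1l-cKO replicates 1 to 5. The controls fell into a high pair (replicates 2 and 5) and 3 low libraries, and all Dot1l-cKO libraries lay between the lowest and the highest control. The log2 fold change was -0.06 with a wide 95% interval of -0.82 to 0.70 (adjusted p = 0.947, edgeR). Its sign was positive in several of the alternative fits, among them the fit with the replicate number as a block (0.083).

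None of the 7 measured RNAs (0 of 7) passed an adjusted p of 0.05 in the edgeR test, against 7.11% of all genes tested (5.67% higher and 1.44% lower in Dot1l-cKO), and with 7 RNAs a count of 0 is near that background. None had an unadjusted p under 0.05 either, against 20.6% of all genes. With DESeq2 and with the replicate number as a block, which called 10.4% and 9.41% of all genes, the count was also 0 at the adjusted threshold, and with each it was 1 at the unadjusted threshold (Malat1, adjusted p = 0.229 with DESeq2 and 0.108 with the block). The groups overlapped in CPM for all 7, while 8.34% of all genes tested had groups that did not overlap. The 3 short RNAs had log2 fold changes of 0.01 to 0.17 and the 4 long RNAs -0.33 to -0.06, beside a median of -0.01 over all genes.

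**Figure D2:**
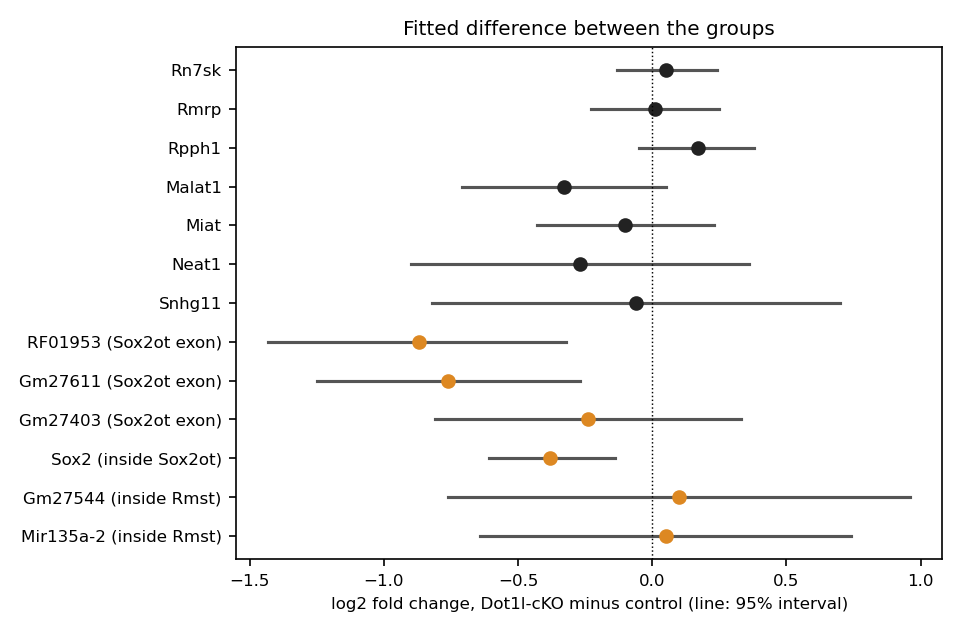
Log2 fold change (Dot1l-cKO minus control, dots) with its 95% interval (lines) from the edgeR fit, for the 7 measured RNAs (black) and for rows that lie inside Sox2ot and Rmst (orange). The interval includes 0 for all 7 RNAs and is narrowest for Rn7sk (-0.13 to 0.24), and it lies below 0 for RF01953, Gm27611 and Sox2, none of which passed adjustment over all genes.

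The precision differed more between these RNAs than their differences between groups. The pooled within-group SD of log2 CPM was 0.11 for Rn7sk, 0.16 for Rpph1 and 0.18 for Rmrp, against a median of 0.22 over all genes tested and 0.15 over those averaging 5 or more log2 CPM. It was 0.27 for Miat, 0.32 for Malat1, 0.48 for Neat1 and 0.62 for Snhg11, and 92.4% of genes tested had a smaller SD than Snhg11. Per kilobase of exon the order was the same in every library: Rn7sk at 61439 to 75008 CPM per kilobase, then Rmrp at 29842 to 44194, Rpph1 at 14699 to 20436, Malat1 at 129 to 321, Miat at 13.6 to 26.2, Snhg11 at 0.269 to 0.850 and Neat1 at 0.0741 to 0.223. No neighbours in this order overlapped over the 10 libraries. The levels of the short RNAs also depend on how well the library preparation retained short RNA, which was not measured. The value of Rpph1 was taken over its full length, including the bases shared with Ccnb1ip1.

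Parts of the long RNAs are also annotated as separate small RNA genes. Noncoding rows on the same strand that stood at 0 in all libraries covered 719 of the 9293 exon bases of Miat in 4 rows, 384 of 20771 in Neat1 in 3 rows, 86 of 6983 in Malat1 in 1 row and 133 of 8521 in Snhg11 in 1 row. The ACTAAC repeats printed above lie in such a row. Reads there were assigned to neither gene if the counting left out reads that overlap 2 genes, and the setting used is not given in the sources used here.

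Sox2ot (chr3:34104270-34682619, plus strand) could be followed only through short rows inside its exons on the same strand, which were picked after their values had been seen. The best counted was RF01953, a noncoding row of 272 bases that lies within an exon of Sox2ot and contains the bases annotated as Mir1897, in capitals (chr3:34638368-34638639).
RF01953: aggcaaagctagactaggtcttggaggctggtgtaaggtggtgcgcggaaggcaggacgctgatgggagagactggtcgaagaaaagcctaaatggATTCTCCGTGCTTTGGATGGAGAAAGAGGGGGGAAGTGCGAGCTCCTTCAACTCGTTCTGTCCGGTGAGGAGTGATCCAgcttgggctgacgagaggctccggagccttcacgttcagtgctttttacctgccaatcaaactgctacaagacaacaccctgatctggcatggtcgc
RF01953 was counted at 4.95, 3.70, 2.80, 6.93 and 6.66 CPM over control replicates 1 to 5. It was counted at 2.91, 2.32, 3.03, 3.38 and 2.01 CPM in Dot1l-cKO replicates 1 to 5. Control replicates 1, 2, 4 and 5 stood above every Dot1l-cKO library, and control replicate 3 lay within their range. The log2 fold change of -0.87 ± 0.25 (SE, 95% interval -1.43 to -0.32) missed the threshold with edgeR (adjusted p = 0.0645) and passed it with DESeq2 (-0.91, adjusted p = 0.00841) and without control replicate 3 (-1.03, adjusted p = 0.0172). RF01953 stayed uncalled in 9 of 11 other settings, among them the replicate block (adjusted p = 0.0757, edgeR), and in 9 of 10 fits that left out 1 library. The log2 fold change was -0.26 among the libraries numbered 57 and -1.17 among the other 6.

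The other rows in Sox2ot exons were very low. Gm27611 held 31 to 58 counts in controls and 22 to 32 in Dot1l-cKO, with a log2 fold change of -0.76 (95% interval -1.25 to -0.27, adjusted p = 0.069 with edgeR and 0.033 with DESeq2), and was lower in Dot1l-cKO in 5 of 5 pairs. It stayed uncalled in 10 of 11 other settings and in 9 of 10 fits that left out 1 library. Gm27403 held 25 to 73 counts over all libraries, with a log2 fold change of -0.24 (95% interval -0.81 to 0.33, adjusted p = 0.661, edgeR). Sox2, the progenitor transcription factor whose gene lies in an intron of Sox2ot on the same strand, was at 129, 149, 136, 126 and 115 CPM over control replicates 1 to 5 and at 91.9, 120.0, 113, 99.0 and 82.2 CPM over replicates 1 to 5 of Dot1l-cKO. The groups overlapped through control replicate 5 and Dot1l-cKO replicate 2. The log2 fold change of Sox2 was -0.38 ± 0.11 (SE, 95% interval -0.61 to -0.14), with an adjusted p of 0.0639 in edgeR, 0.00906 with the replicate number as a block and 0.0121 in DESeq2. Sox2ot itself was not analysed here, so these values describe the locus and not its full-length RNA.

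Rmst (chr10:92071037-92165170, minus strand) had 10 short noncoding rows within its span on its strand, of which 3 stood at 0 in every library. The best counted were Gm27544, at 22 to 116 counts, and Mir135a-2, at 11 to 34 counts. Gm27544 shares only 50 of its 155 bases with Rmst exons and Mir135a-2 shares 0, so these values describe the locus and not the spliced Rmst RNA. Gm27544 was lowest in Dot1l-cKO replicate 4 (0.332 CPM against 1.43 to 2.01 CPM in the other 4 Dot1l-cKO libraries). Their log2 fold changes were 0.10 (95% interval -0.76 to 0.96) and 0.05 (95% interval -0.64 to 0.74), with adjusted p of 0.922 and 0.955 in edgeR. For Gm27544, ratios of Dot1l-cKO to control from 0.589 to 1.94 lay within the interval, so this fit did not exclude differences within that range.

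**Figure D3:**
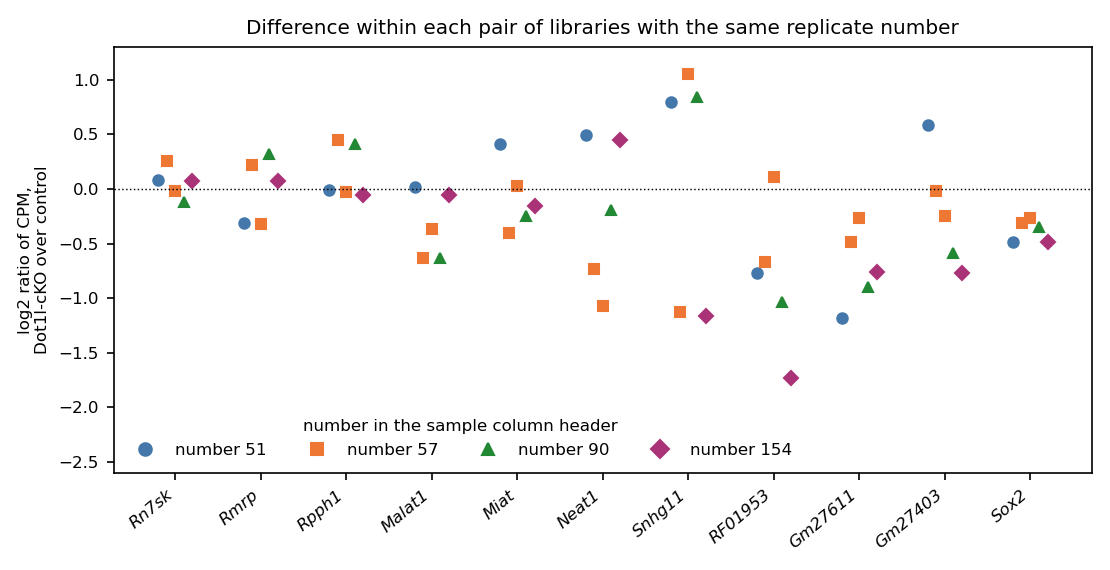
Log2 ratio of CPM, Dot1l-cKO over control, in each of the 5 pairs of libraries with the same replicate number, with shape and colour for the number in the sample column header. Sox2 and Gm27611 lie below 0 in 5 of 5 pairs and Malat1, RF01953 and Gm27403 in 4 of 5, while Rn7sk, Rmrp, Rpph1, Miat, Neat1 and Snhg11 have pairs on both sides of 0.

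The proteins that work with these RNAs showed few called differences. Of the 7 genes of the 7SK particle and P-TEFb (Larp7, Mepce, Hexim1, Hexim2, Cdk9, Ccnt1 and Ccnt2), 0 passed the edgeR test, 0 had an unadjusted p under 0.05 and 0 passed with DESeq2, with log2 fold changes of -0.17 to 0.25 and a median of -0.07. The best expressed were the cyclins Ccnt1 (109 ± 11.4 CPM in controls, 97.0 ± 11.4 in Dot1l-cKO, log2 fold change -0.17, adjusted p = 0.374) and Ccnt2 (log2 fold change -0.07, adjusted p = 0.719). Of the 11 protein genes of RNase P and RNase MRP, only Rpp25 was called among those listed, and it fell by 1.84 on the log2 scale (95% interval -2.73 to -0.96, adjusted p = 0.0192, edgeR), from 4.61 ± 1.93 to 1.28 ± 0.707 CPM. Rpp25 encodes a subunit shared by both enzymes, and its close relative Rpp25l, with group means of 28.0 CPM (controls) and 27.6 CPM (mutants), had a log2 fold change of -0.02 (95% interval -0.18 to 0.13). Without Dot1l-cKO replicate 3 the adjusted p of Rpp25 was 0.0515. The median over the 11 genes was -0.02.

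Paraspeckle proteins gave 0 of 12 called and nuclear speckle proteins 0 of 11, with edgeR and with DESeq2, and unadjusted p under 0.05 was reached by 1 and 0 of them. Their medians were -0.20 and -0.16 on the log2 scale, below the -0.01 of all genes, and 10 of 12 and 10 of 11 values were below 0. Among them, the paraspeckle protein Nono was at 827 ± 53.3 and 773 ± 52.8 CPM (log2 fold change -0.10, adjusted p = 0.5), Hnrnpk had a log2 fold change of -0.08 (adjusted p = 0.625), and the speckle core gene Son had -0.19 (adjusted p = 0.322) and the splicing factor Srsf1 -0.15 (adjusted p = 0.615). RNA polymerase III subunits and its promoter factors gave 0 of 18 called with both tools and 1 with an unadjusted p under 0.05. As in the lists of paraspeckle and nuclear speckle proteins, most of their values were below 0 (15 of 18), with a median of -0.08. The best expressed were Bdp1 (-0.10, adjusted p = 0.438) and Polr3k (-0.07, adjusted p = 0.792). Of the 7 splicing partners of Miat, 0 were called by edgeR and 1 by DESeq2 (Celf1, lower), and 4 had an unadjusted p under 0.05: Sf1 at -0.28, Celf1 at -0.22, Qk at -0.24 and Celf4 at 0.38 (adjusted p of 0.205, 0.115, 0.215 and 0.104). Celf2, the best expressed besides Srsf1, had a log2 fold change of -0.16 (adjusted p = 0.492).

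Other short structured RNAs differed widely among themselves in their spread between libraries. Of 17 such genes, 16 were tested, 0 were called by edgeR or DESeq2 and 1 had an unadjusted p under 0.05, with a median log2 fold change of -0.00. Their summed level was 934 to 2142 CPM in controls and 1160.1 to 3443 CPM in Dot1l-cKO. Rn7s1, an RNA of the signal recognition particle, was at 213 ± 143 and 561 ± 523 CPM (log2 fold change 1.40, adjusted p = 0.243, and 0.69 without Dot1l-cKO replicate 4), and the Y RNA Rny3 at 389.6 ± 248 and 489 ± 243 CPM (log2 fold change 0.33, adjusted p = 0.762). Rn7s2, another row for the RNA of that particle, was at 211 ± 53.2 and 245 ± 79.9 CPM (log2 fold change 0.21, adjusted p = 0.672, edgeR). By contrast the telomerase RNA Terc was at 26.8 ± 1.35 and 28.3 ± 1.27 CPM, and the Cajal body RNA Scarna2 at 291 ± 17.2 and 293 ± 13.7 CPM. Long noncoding hosts of small nucleolar RNAs, the class of Snhg11, gave 0 of 13 called by edgeR, 1 with an unadjusted p under 0.05 and 1 by DESeq2 (Snhg15, lower), with a median of -0.05. The best expressed were Gas5 (-0.01, adjusted p = 0.949) and Snhg14 (-0.28, adjusted p = 0.467).

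Other long noncoding RNAs did include called genes. Of 21 tested rows, 4 passed the edgeR test, all lower in Dot1l-cKO, while 1.44% of all genes were called lower, and the median of the list was -0.25. Pantr1, a noncoding RNA next to the neuronal factor gene Pou3f3, fell from 99.6 ± 15.7 to 62.0 ± 9.31 CPM (log2 fold change -0.68, adjusted p = 0.00909), Mir9-3hg, a host of the neural miR-9, from 60.8 ± 6.25 to 43.0 ± 4.89 CPM (-0.50, adjusted p = 0.00974), Dleu2 from 31.0 ± 5.46 to 19.7 ± 4.17 CPM (-0.66, adjusted p = 0.037) and Ftx, a noncoding RNA of the X-inactivation centre, from 9.42 ± 0.629 to 7.05 ± 0.876 CPM (-0.42, adjusted p = 0.0406). With 1 library left out, the call of Ftx was lost in 9 of 10 fits and that of Dleu2 in 6 of 10, with adjusted p up to 0.1. In the 11 other settings, the call of Ftx was lost in 4 and that of Dleu2 in 2. The genes were listed with earlier results of these data known, so their count is not independent evidence. With the replicate number as a block, Kcnq1ot1 was called as well, also lower. DESeq2 called the 4 and in addition Six3os1, lower (-1.74 and adjusted p = 0.0609 in edgeR), and Trp53cor1, higher (1.49 and adjusted p = 0.0654 in edgeR).

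The genes listed as genomic neighbours gave 2 called of 14 tested, both higher in Dot1l-cKO, with a median of -0.04. Cryba4, the crystallin gene 17.1 kb from Miat, rose from 0.387 ± 0.120 to 0.884 ± 0.0593 CPM (log2 fold change 1.18, adjusted p = 0.00759). Gstt1, a glutathione transferase gene, rose from 2.53 ± 0.203 to 5.04 ± 0.436 CPM (0.99, adjusted p = 0.000625), but it lies 16272 kb from Rmst, its nearest listed RNA on chromosome 10, and is no neighbour in practice. Parp2, 74 bases from Rpph1, had a log2 fold change of 0.05 (adjusted p = 0.77), and Ick, 3.20 kb from Rn7sk, had -0.13 (adjusted p = 0.513).

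**Figure D4:**
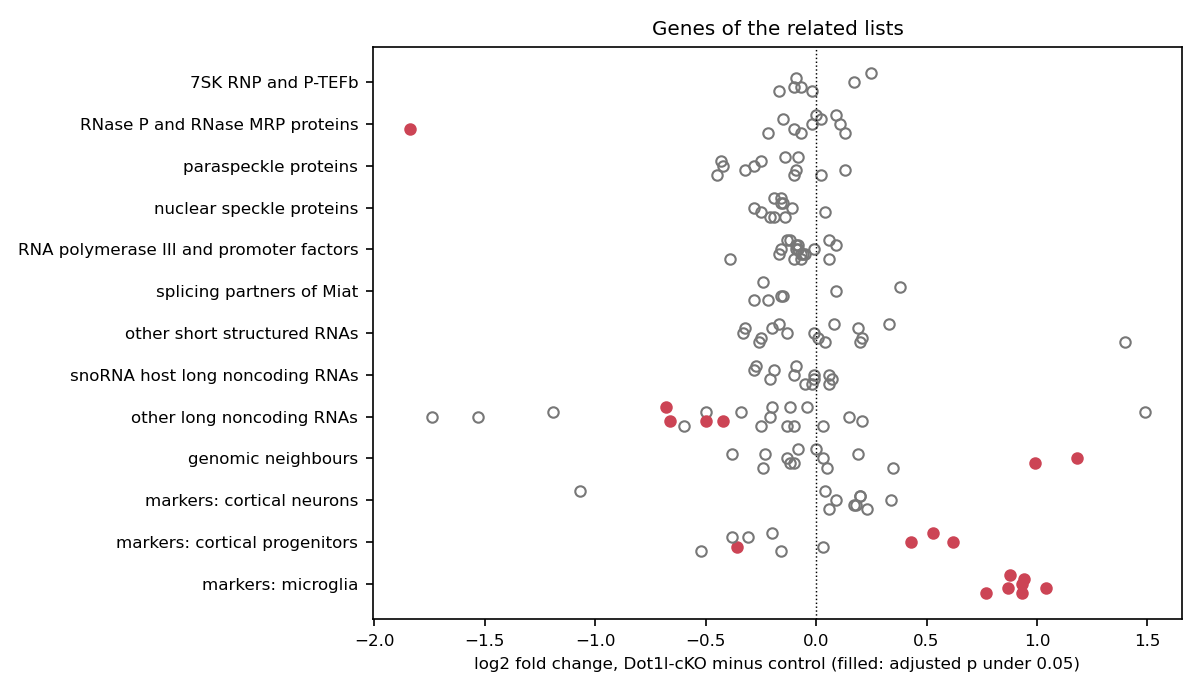
Log2 fold change (Dot1l-cKO minus control) of every tested gene of the related lists and of 3 marker lists, 1 circle per gene, filled where the adjusted p of the edgeR test was under 0.05. Filled circles appear for Rpp25 (-1.84), for 4 other long noncoding RNAs (all below 0), for 2 genes of the neighbour list (both above 0), and in the marker lists, where all 7 microglial markers lie between 0.77 and 1.04.

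Markers of some other cell types moved with the groups. All 7 microglial markers rose in Dot1l-cKO (6 of 7 with the replicate block), with a summed level of 35.7 to 65.3 CPM in controls and 72.9 to 112 CPM in Dot1l-cKO. Of 10 cortical progenitor markers, edgeR called Vim, Slc1a3 and Fabp7 higher and Pax6 lower, while 6 of the 10 lay below 0 and the list median was -0.18. DESeq2 and the replicate block also called Sox2 lower. Of 10 cortical neuron markers, 0 were called by edgeR and 3 had an unadjusted p under 0.05 (DESeq2 and the replicate block each called 2, Neurod2 among them). Ventral telencephalic markers summed to 55.3 to 286 CPM in controls and 5.46 to 83.4 CPM in Dot1l-cKO, and Lhx6 was the gene called among 8 tested, from 30.4 ± 12.4 to 3.79 ± 2.20 CPM (adjusted p = 0.00187). Choroid plexus and hem markers ranged from 4.61 to 666 CPM in controls and from 8.22 to 172 CPM in Dot1l-cKO with 0 of 7 called, and blood (0 of 8) and endothelial (0 of 6) markers gave no call, with 0 unadjusted p under 0.05 in each of the 3 lists and none called by DESeq2. The diencephalic list gave 1 called of 5 tested, Lhx9, higher by a log2 fold change of 0.77, while the list median was -0.34 and Tcf7l2, at -1.15 (adjusted p = 0.112, edgeR), was called lower by DESeq2. None of these markers was at 0 in all libraries. Their part in the values of the noncoding RNAs was not tested.

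Across the 10 libraries the levels of Malat1, Neat1 and Miat were positively correlated. The Pearson correlation of log2 CPM was 0.74 between Malat1 and Neat1 and 0.68 between Malat1 and Miat, and 0.63 and 0.34 in the 6 libraries not numbered 57. It was 0.04 between Rn7sk and Rmrp. Between Rmrp and Rpph1 it was 0.61, and 0.36 without Dot1l-cKO replicate 4 and 0.77 in the 6 libraries not numbered 57. Between Malat1 and Rmrp it was -0.56, and -0.07 without Dot1l-cKO replicate 4 and -0.85 in those 6 libraries. These are descriptions over 10 libraries that share their scaling factors, their groups and their header numbers, and carry no test.

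Among 12652 genes averaging 1 or more log2 CPM, those whose levels over the 10 libraries were most like each RNA were, by the same measure, Msl2 and Fam13b for Malat1 (both 0.97), Arid3a and Kif1c for Neat1 (both 0.92), Tmem191c (0.90) and L3hypdh (0.87) for Miat, and AW551984 (0.94) and Cdk5r2 (0.91) for Snhg11. For the short RNAs they were Sem1 (0.91) and Atp5c1 (0.89) for Rn7sk, Kars (0.97) and Ift43 (0.93) for Rmrp, and Tars2 (0.97) for Rpph1. None of these genes passed the edgeR test between the groups, and their smallest adjusted p was 0.252 (Fam13b). They are among the highest of 12652 values searched for each RNA, over libraries that share scaling factors and header numbers.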

How the data were processed

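The authors trimmed reads with Trim Galore 0.2.8, aligned them to mm10 with TopHat2 2.0.9 guided by Ensembl 79 genes, and counted them per gene with HTSeq 0.6.0 in reverse-stranded mode. They deposited 1 table of raw counts per library and 1 of normalised counts, a signal made by dividing counts by DESeq2 1.6.1 size factors. Per-sample totals were 54202349 to 66556034 counts. Interval widths rest on 5 libraries per group, which the labels call biological replicates. No row named no gene (0 rows), and 42548 of 43629 identifiers matched a GENCODE M21 symbol, with the others holding 0.268% of counts. All 20 pairs of libraries within a group differed beyond counting noise (chi-square per degree of freedom of at least 23.4).

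Raw counts of all genes were filtered with filterByExpr, scaled by TMM and tested with the quasi-likelihood test of edgeR 4.0.16 (R 4.3.3) with genotype as the only term, and p-values were adjusted over all genes by Benjamini-Hochberg with a threshold of 0.05. The 95% intervals are per gene and were not adjusted. CPM uses TMM library sizes, and log2 CPM a prior count of 2. The test was checked on simulated counts. Alternatives were DESeq2 1.42.0, its size factors, library sizes without mitochondrial genes or without the listed RNAs, other count filters, replicate and header-number blocks, the header numbers separately, limma 3.58.1 on log2 of the deposited normalised counts plus a pseudocount of 1, and each library left out. Same-numbered libraries of the 2 groups had positively correlated deviations in all 5 pairs (0.131 to 0.597), and the numbers were taken as pairing the samples. This pairing is an assumption: the own number was the best partner in only 2 of 5 (replicates 1 and 4). Replicates 2 and 3 share the header number 57, which does not tell which of their libraries pair.

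Named in the text were the 9 RNAs, Dot1l and Sox2, up to 4 called genes of each list by size of change or, where none was called, the 2 best expressed, and the 2 genes most like each RNA. Genes named beyond this rule were chosen after their values were seen, among them the rows inside Sox2ot and Rmst, Rpp25l, Terc, Scarna2, Parp2, Ick and the genes that passed only under an alternative or before adjustment. The RNAs and lists were chosen with earlier results of these data known. Copies were searched with BLAST+ 2.17.0 (word size 11) in the GENCODE M21 transcripts. Some genes that these rules name are not reported here.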

Additional observations from a re-analysis of the deposited data

Results flagged for a closer look

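In the Dot1l-cKO group, Malat1 in replicate 4 stood away from the other 4 libraries, with 902 CPM against 1440.5 to 1571 CPM, and the gap took 0.844 of the range of log2 CPM (critical value 0.71 for 5 samples). That library had the highest total, 66556034 counts, and also the highest Rmrp of all 10 libraries (11977 CPM). In the same library Gm27544, a row inside Rmst, was at 0.332 CPM (22 counts) against 1.43 to 2.01 CPM, with a gap of 0.807 of the range. Dot1l in Dot1l-cKO replicate 2 was at 20.1 CPM (1158 counts) against 39.6 to 51.7 CPM, with a gap of 0.717 of the range. These were 3 of 30 groups examined, and chance passes about 1 in 20. The cause was not tested for any of them.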

How the results depend on the processing

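None of the 7 measured RNAs passed the adjusted threshold in any of the 21 alternative fits (0 of 147 values), and 24 of the 147 values changed sign, all in RNAs whose interval spans 0. The adjusted p of Malat1 ranged from 0.0813 (header-number block) to 0.605, and its log2 fold change from -0.40 to -0.21 with 1 library left out. Over all genes, 1212 were called (966 higher and 246 lower in Dot1l-cKO), and with 1 library left out 750 (without control replicate 1) to 1357 (624 to 1076 higher and 126 to 343 lower). DESeq2 called 2011, of which 663 were lower. With the replicate number as a block, which assumes that same-numbered libraries are pairs, 495 were lower and with the header-number block 597. Among the 4 libraries numbered 57 alone, 1 gene was called, higher, and 0 lower. Among the other 6, 745 were called, 590 higher and 155 lower. The replicate block turned the log2 fold change of Snhg11 (0.083), Rmrp (-0.0044) and Gm27544 (-0.017) to the other sign and brought Sox2 past the threshold, and it changed no other call named here except those given in the text. The header-number block turned Snhg11 (0.00099), Rmrp (-0.004) and Gm27544 (-0.019). Rmrp also turned with DESeq2 (-0.019) and its size factors (-0.019), without mitochondrial genes (-0.001), without a filter (-0.0048) and with limma (-0.032), which also turned Snhg11 (0.051), Dot1l (-0.0058) and Gm27544 (-0.085). Among the libraries numbered 57, Rmrp (-0.03), Dot1l (-0.37), Hnrnpk (0.025), Ccnt2 (0.053), Polr3k (0.074) and Snhg14 (0.08) turned, and among the others Snhg11 (0.045), Neat1 (0.29), Mir135a-2 (-0.023) and Gm27544 (-0.052). With 1 library left out, log2 fold changes that crossed 0 ranged from -0.23 to 0.18 for Snhg11, -0.084 to 0.063 for Rmrp, -0.40 to 0.023 for Neat1, -0.21 to 0.019 for Miat, -0.046 to 0.25 for Dot1l, -0.14 to 0.0052 for Polr3k, -0.075 to 0.045 for Gas5, -0.074 to 0.23 for Mir135a-2 and -0.078 to 0.35 for Gm27544. The cause was not tested. Neat1, Snhg11 and the short rows inside Sox2ot and Rmst had low counts, and the part of low counts in their spread was not tested.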
